A study of Homo sapiens with 18 samples.

Results

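GAS5, ZFAS1, SNHG1, SNHG5, SNHG6, SNHG8, SNHG12, SNHG15, SNHG16 and EPB41L4A-AS1 are genes whose introns carry small nucleolar RNAs (snoRNAs) and whose spliced exons make long noncoding RNAs known as targets of nonsense-mediated decay (NMD). These 10 host genes were chosen by name, for the known sensitivity of their RNAs, at a time when earlier results of these data were known. All 10 were found among the 44016 features of the count table, and all 10 passed the filter on low counts that left 22382 features for testing. In the MagoHB knockdown 8 of the 10 were higher than in wild-type cells and 0 lower, where 23.3% and 22.3% of all genes tested were. Of the 10, 1 was higher and 6 were lower in the untreated S100A16 knockdown, where 27.6% and 24.8% of all genes tested were, and scaling by total counts alone made these 4 and 4.

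snoRNAs guide the chemical modification of ribosomal and other RNAs, and in animals most of them are trimmed out of introns after a host transcript has been spliced. The exons left over are exported, and ribosomes that engage them soon meet a stop codon. Splicing leaves an exon junction complex, built on EIF4A3, RBM8A and a MAGO protein (MAGOH or its near-identical copy MAGOHB), just upstream of each exon junction, and a complex that remains downstream of a terminating ribosome recruits the UPF and SMG proteins that destroy the RNA. Host RNAs of this kind rise when translation or NMD is blocked, and many are made from genes that begin with a pyrimidine tract, as ribosomal protein genes do.

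Polyadenylated RNA was sequenced from A549, a long-established line of human lung adenocarcinoma cells, in 6 groups of 3 libraries. Wild-type (WT) cells and cells with a stable knockdown (KD) of S100A16, a calcium-binding protein, were each left untreated or exposed to 100 µM H2O2 (hydrogen peroxide) during 2 h. Stable KDs of hnRNPM, an RNA-binding splicing regulator of the nucleus, and of MagoHB, the protein of MAGOHB, were sequenced without treatment. All controls were unmodified WT cells. The sources used here do not give how each KD was made or whether each is 1 clone. The 3 KDs were compared with the same untreated WT libraries, so their values are given side by side and no overlap between those comparisons is read as a result.

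Totals ranged from 36612997 to 51406431 counts per library. The mRNA named in each KD had its lowest mean there, and MAGOHB stood at 61.6, 37.8 and 57.0 CPM (counts scaled to 1e6 per library) in MagoHB KD 1, 2 and 3 against 147 to 156 CPM in untreated WT, or 34.8% of WT on average (log2 fold change -1.52, adjusted p = 3.08e-07). MAGOHB was also lower in the hnRNPM KD (44.4% of WT, adjusted p = 3.68e-06) and in the untreated S100A16 KD (65.0% of WT, adjusted p = 0.00122). Its difference between the MagoHB and hnRNPM KDs, whose libraries overlapped, was not called (log2 -0.35, 95% interval -0.65 to -0.06, adjusted p = 0.0505, within 2.48e-05 to 0.215 over the alternatives). The other targeted mRNAs moved as well: in the MagoHB KD S100A16 was at 51.1% of WT (adjusted p = 2.79e-07) and HNRNPM at 80.4% (adjusted p = 0.0458, and not called by total counts alone, at 0.408, the highest over the alternatives). HNRNPM was at 67.5% of WT (adjusted p = 0.000911) and MAGOH at 63.1% (adjusted p = 8.95e-07) in the S100A16 KD without H2O2. MagoHB KD 2 and hnRNPM KD 3 lay farthest from the other libraries of their groups, by a median of 0.20 and 0.17 on the log2 scale over 11443 genes, where the 12 libraries of WT and the S100A16 KD lay 0.055 to 0.073 away. Of 6 epithelial markers 4 exceeded 1 CPM in every library (KRT8, KRT18, CDH1 and EPCAM), and the 6 summed to 4410 to 8780 CPM. The same level was exceeded in every library by 3 of 6 fibroblast, 1 of 5 leukocyte and 0 of 4 endothelial markers. Summed levels were 25.0 to 63.4 CPM for 6 fibroblast markers, 76.4 to 156 CPM for 5 leukocyte markers, nearly all of it from CD68, a lysosomal protein, and 0.172 to 1.02 CPM for 4 endothelial markers. No marker was at 0 in every library. The part of other cells in the results was not tested, and in bulk RNA fewer expressing cells and less RNA per cell cannot be told apart. Nothing says whether the 3 libraries of a group came from separate cultures, so p-values measure the spread between these libraries, which may be technical.

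The reading frames that a scanning ribosome would meet first are short in the annotated transcript read for each host. In 1 spliced GENCODE 29 transcript per host, the frame opened by the first AUG had 5 codons in SNHG1 and SNHG12, 12 in SNHG5, 18 in SNHG15, 19 in SNHG6, 25 in ZFAS1, 26 in EPB41L4A-AS1, 31 in SNHG16, 50 in GAS5 and 52 in SNHG8. Its stop codon lay from 89 bases (ZFAS1) to 1259 bases (SNHG16) upstream of the last exon junction, so all 10 exceed the 50 bases commonly given as the minimum for NMD. The frames of 3 hosts are printed to show how little of the RNA they cover: ZFAS1, which had the largest rise in the MagoHB KD, and SNHG12 and SNHG1, which share the shortest frame and of which only SNHG12 was called there. SNHG12-211 begins at base 28582983 of chromosome 1, and its frame lies upstream of the RefSeq start site printed below. An RNA that begins at that site lacks this frame. In SNHG1-206 the first exon, which holds the frame, runs across SNORD25, so this form keeps intron sequence. The frames are given as DNA, 5′ to 3′, with start and stop codons in capitals.
ZFAS1 (ZFAS1-201, bases 122 to 199 of 504): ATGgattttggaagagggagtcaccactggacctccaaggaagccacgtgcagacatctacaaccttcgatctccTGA
SNHG12 (SNHG12-211, bases 111 to 128 of 1365): ATGgtctcgatctccTGA
SNHG1 (SNHG1-206, bases 105 to 122 of 1487): ATGccttctgtgttgTAG

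After the stop codon, 9 exon junctions follow in SNHG1, 7 in GAS5, 5 in SNHG12, 4 in SNHG5, 3 in SNHG6 and 2 each in ZFAS1, SNHG8, SNHG15, SNHG16 and EPB41L4A-AS1. Over all 88 spliced transcripts that GENCODE 29 lists for the hosts, without those marked as retaining an intron, 79 (89.8%) have this stop more than 50 bases before the last junction. Among the other spliced long noncoding transcripts 17633 of 24828 (71.0%) do, so the arrangement is frequent in noncoding RNA as a whole and says nothing by itself about decay. Which transcripts A549 cells make was not measured here, since the counts are per gene.

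**Figure D1:**
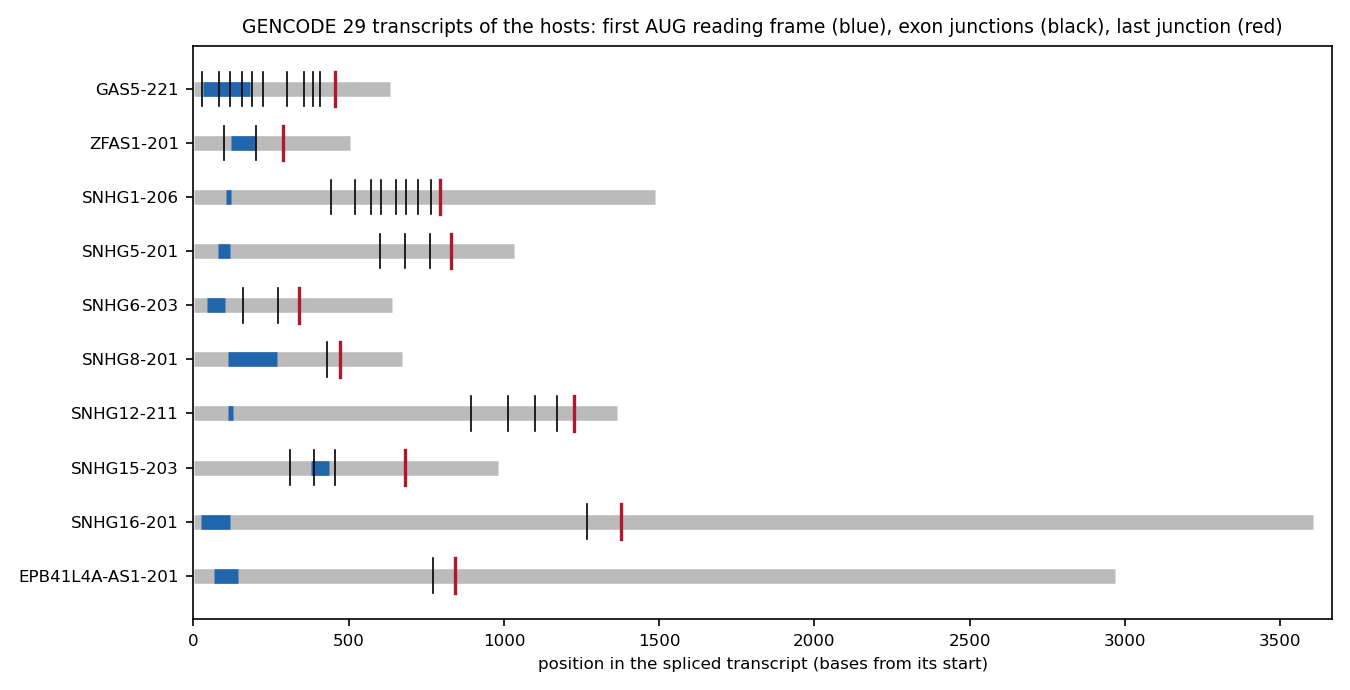
Each bar is 1 spliced GENCODE 29 transcript of a host, drawn in bases from its start, with the reading frame of the first AUG in blue, exon junctions as black lines and the last junction in red. In all 10 the blue frame ends before the red line, closest in ZFAS1 (89 bases) and farthest in SNHG16 (1259 bases).

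The start sites of the hosts were read from RefSeq (GRCh38.p14), which holds an entry for 8 of the 10. In ZFAS1, SNHG5 and SNHG12 the RNA begins with a C followed by at least 4 more pyrimidines (C or T), on the strand of the gene. This is 3 of 8 hosts (37.5%), against 4 of 15 other noncoding snoRNA hosts (26.7%), 45 of 76 ribosomal protein start sites (59.2%) and 1429 of 35116 start sites of all genes (4.07%). The 3 windows are printed with the SNHG1 window, whose run is shorter, from 20 bases before the start site to 30 bases from it, and the pyrimidine run from the start site is in capitals. The RefSeq start site of GAS5, 1 of the 5 without a match, lies upstream of the GAS5 gene as counted. A match describes the letters only, and a window without one says nothing about the host's other start sites.
ZFAS1 (chr20:49278622-49278671, plus strand): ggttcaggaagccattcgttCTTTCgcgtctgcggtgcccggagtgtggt
SNHG5 (chr6:85678704-85678753, minus strand): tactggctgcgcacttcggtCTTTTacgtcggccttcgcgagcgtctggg
SNHG12 (chr1:28581844-28581893, minus strand): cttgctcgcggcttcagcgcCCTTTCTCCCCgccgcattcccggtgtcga
SNHG1 (chr11:62855856-62855905, minus strand): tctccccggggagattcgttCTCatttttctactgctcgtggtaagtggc

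Levels of different genes are given per length, as deposited RPKM (counts scaled by exon length and by the library's total). The deposited length was 3631 bases for GAS5 and 1247 for SNHG6, whose transcripts above have 632 and 638 bases. In untreated WT these 2 hosts had 61.0 and 61.5 CPM, so the order depends on the length used. In untreated WT the order was SNHG6 at 45.1 ± 1.4 RPKM, SNHG5 at 38.5 ± 1.9, ZFAS1 at 33.1 ± 0.81, SNHG8 at 20.2 ± 1.2, GAS5 at 15.4 ± 0.29, EPB41L4A-AS1 at 10.6 ± 0.43, SNHG1 at 7.24 ± 0.11, SNHG16 at 6.30 ± 0.19, SNHG15 at 4.21 ± 0.11 and SNHG12 at 3.29 ± 0.13 (mean ± SD, n = 3). No neighbours in that order overlapped in their libraries. In the MagoHB KD ZFAS1 stood first, at 76.1 ± 22 RPKM, with libraries that overlapped those of SNHG6 (66.4 ± 6.0 RPKM), and the pairs SNHG8 with GAS5 and SNHG1 with SNHG16 overlapped as well. In the untreated S100A16 KD SNHG5, at 27.9 ± 0.082 RPKM, stood behind SNHG6, ZFAS1 and SNHG8, and its libraries overlapped those of SNHG8, and EPB41L4A-AS1 overlapped GAS5 next in the order. In the hnRNPM KD ZFAS1 overlapped SNHG5, SNHG8 overlapped GAS5, and SNHG15 overlapped SNHG12.

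**Figure D2:**
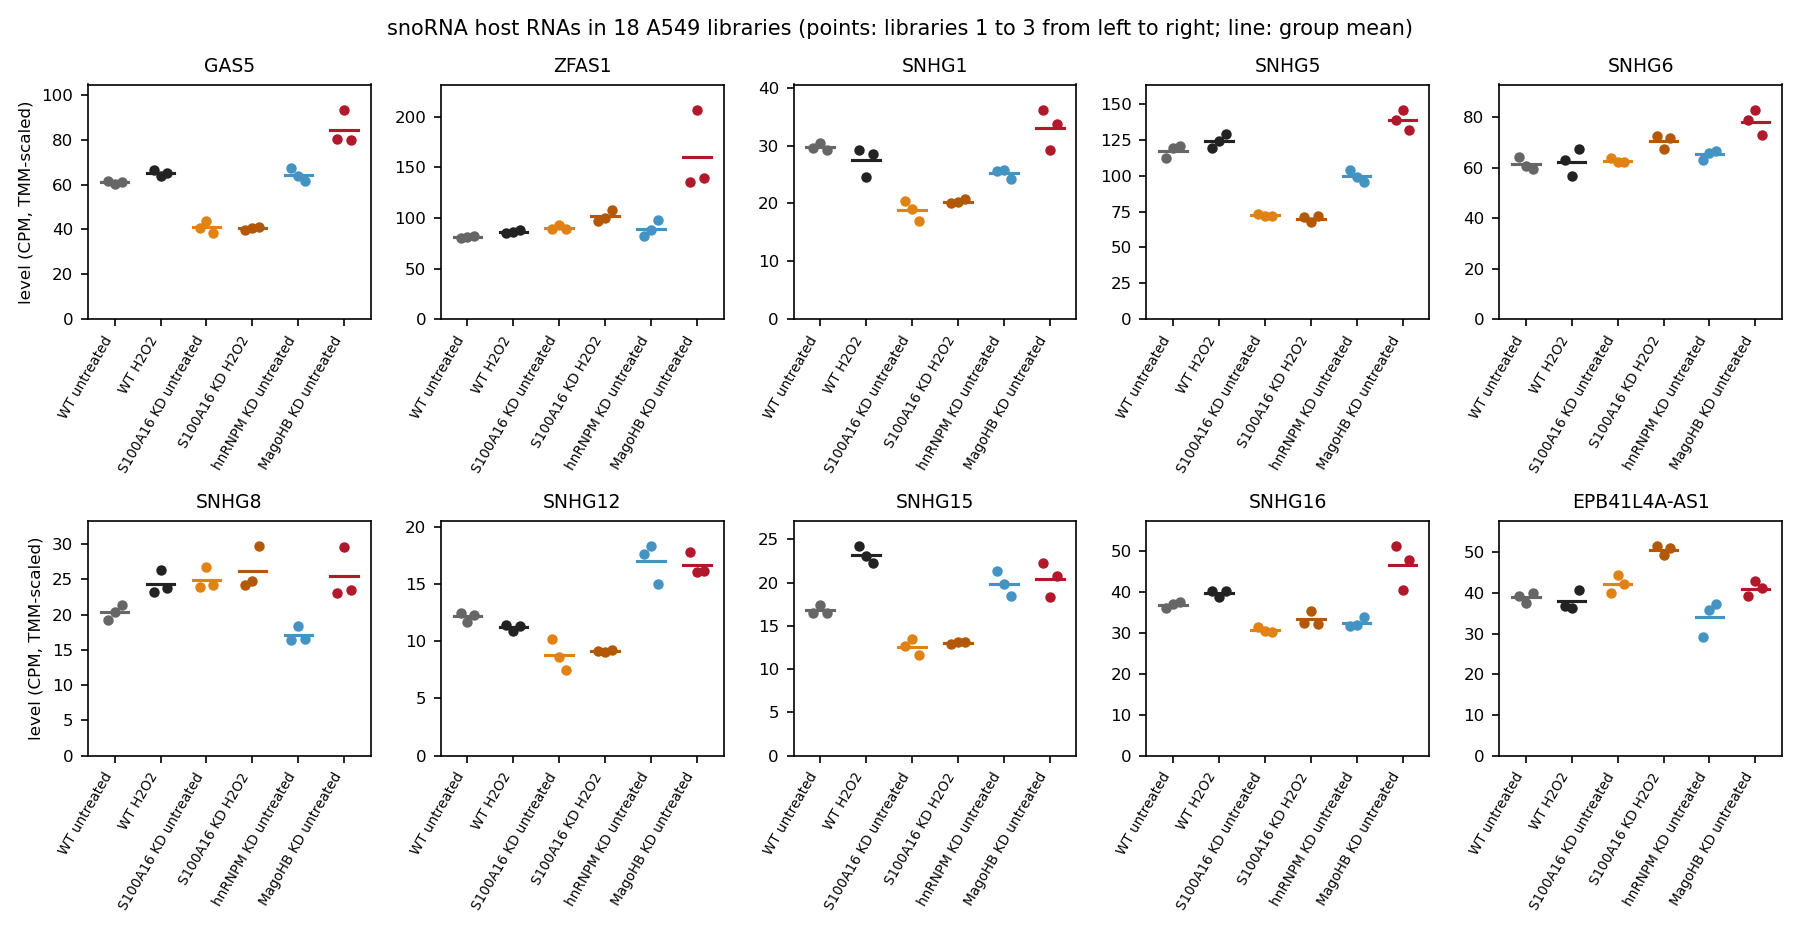
Each panel is 1 host and each point 1 library, as CPM scaled by TMM, with the group mean as a line and the axis from 0. The 3 MagoHB KD libraries lie above all untreated WT libraries for every host except SNHG1 and EPB41L4A-AS1, and MagoHB KD 2, the middle point, is the highest for ZFAS1 (207 CPM) and the lowest for SNHG16 (40.5 CPM).

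The MagoHB KD was compared with untreated WT to ask how the level of these RNAs differs between those cells. Protein was not measured here, and the part of MAGOHB itself in the differences was not tested. Summed over the 10 hosts, the level went from 476 ± 5.2 CPM in WT to 645 ± 53 CPM in the MagoHB KD (SD, n = 3; lowest and highest libraries 471 and 481 CPM against 607 and 706 CPM). By the edgeR test 8 of 10 hosts were called higher, where 23.3% of all genes tested were, and 0 were called lower, where 22.3% were. At an unadjusted p under 0.05 the counts were also 8 and 0, and DESeq2 gave 8 and 0. In 8 hosts all 3 KD libraries lay above all 3 WT libraries, as in 26.9% of all genes tested. The median log2 fold change of the hosts was 0.33, within a range of 0.08 to 0.98, against 0.04 over all genes tested. Scaling by total counts alone shifts the log2 fold changes of this comparison up by a median of 0.21, and with it all 10 hosts were called higher.

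ZFAS1, which is transcribed antisense to the 5′ end of ZNFX1 and hosts SNORD12, SNORD12B and SNORD12C (GRCh38 chromosome 20, 49278178 to 49295738, plus strand), stood at 80.0, 81.5 and 82.2 CPM in WT 1, 2 and 3 and at 136, 207 and 139 CPM in MagoHB KD 1, 2 and 3. All KD libraries were above all WT libraries, and the middle one was far above the others. ZFAS1 rose 1.98-fold (log2 0.98, SE 0.11, adjusted p = 1.92e-06), the largest change among the 10 hosts. Without MagoHB KD 2 the log2 fold change was 0.76 (adjusted p = 4.51e-11, within 8.17e-39 to 0.00194 over the alternatives).

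GAS5, a growth arrest RNA that hosts SNORD44, SNORD47 and SNORD74 to SNORD81 (chromosome 1, 173863900 to 173868882, minus strand), was at 61.6, 60.2 and 61.2 CPM in WT and at 80.1, 93.4 and 79.9 CPM in the MagoHB KD. The groups did not overlap, and MagoHB KD 2 was again the highest library. GAS5 rose 1.39-fold (log2 0.47, SE 0.063, adjusted p = 2.94e-06), and the log2 fold change was 0.39 without that library.

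SNHG12, the host of SNORA16A, SNORA44, SNORA61 and SNORD99 (chromosome 1, 28578538 to 28582983, minus strand), was at 12.5, 11.7 and 12.3 CPM in WT and at 17.8, 16 and 16.1 CPM in the MagoHB KD. The groups did not overlap, and the rise was 1.37-fold (log2 0.45, SE 0.096, adjusted p = 0.000529). SNHG6, the host of SNORD87 on chromosome 8, was at 64.2, 60.8 and 59.6 CPM in WT and at 78.9, 83.0 and 72.9 CPM in the KD. It rose 1.27-fold without overlap (log2 0.35, SE 0.064, adjusted p = 0.000127).

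SNHG16, which carries SNORD1A, SNORD1B and SNORD1C (chromosome 17, 76557766 to 76565348, plus strand), was at 36.2, 37.0 and 37.6 CPM in WT and at 51.2, 40.5 and 47.9 CPM in the MagoHB KD. Here MagoHB KD 2 was the lowest of the KD libraries, still above every WT library, and the rise was 1.26-fold (log2 0.33, SE 0.070, adjusted p = 0.00056). SNHG15, the host of SNORA9 (chromosome 7, 44983023 to 44986961, minus strand), was at 16.5, 17.4 and 16.5 CPM in WT and at 22.2, 18.3 and 20.8 CPM in the KD. It rose 1.22-fold (log2 0.28, SE 0.080, adjusted p = 0.00619), and MagoHB KD 2 was the lowest KD library here too.

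SNHG5, the host of SNORD50A and SNORD50B (chromosome 6, 85660950 to 85678736, minus strand), was at 112, 119 and 121 CPM in WT and at 139, 146 and 132 CPM in the MagoHB KD. The groups did not overlap, and the rise was 1.18-fold (log2 0.24, SE 0.056, adjusted p = 0.00118). SNHG8, the host of SNORA24 (chromosome 4, 118278709 to 118279823, plus strand), was at 19.3, 20.4 and 21.3 CPM in WT and at 23.1, 29.6 and 23.5 CPM in the KD. It rose 1.25-fold (log2 0.32, SE 0.096, adjusted p = 0.00867), with its adjusted p between 0.000301 and 0.0741 over the alternatives. The call on SNHG8 was lost without MagoHB KD 2 (log2 0.20, adjusted p = 0.0741) and without WT untreated 1 (log2 0.28, adjusted p = 0.0503).

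SNHG1, the host of SNORD22 and SNORD25 to SNORD31 (chromosome 11, 62851988 to 62855914, minus strand), was at 29.5, 30.4 and 29.3 CPM in WT and at 36.2, 29.3 and 33.7 CPM in the MagoHB KD. MagoHB KD 2 fell within the WT range, the other KD libraries lay above it, and the difference was not called (log2 0.15, 95% interval -0.01 to 0.32, adjusted p = 0.131). SNHG1 was called higher without that library (log2 0.23, adjusted p = 0.0155) and by total counts alone (log2 0.36, adjusted p = 0.000346), with adjusted p up to 0.447 over the alternatives. EPB41L4A-AS1, which is antisense to EPB41L4A and hosts SNORA13 (chromosome 5, 112160526 to 112164276, plus strand), was at 39.2, 37.6 and 39.9 CPM in WT and at 39.2, 42.9 and 41.1 CPM in the KD. The groups overlapped, and the log2 fold change was 0.08 (95% interval -0.08 to 0.24, adjusted p = 0.423), or 0.29 by total counts alone (adjusted p = 0.00675, with a range of 0.00675 to 0.707 over the alternatives).

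**Figure D3:**
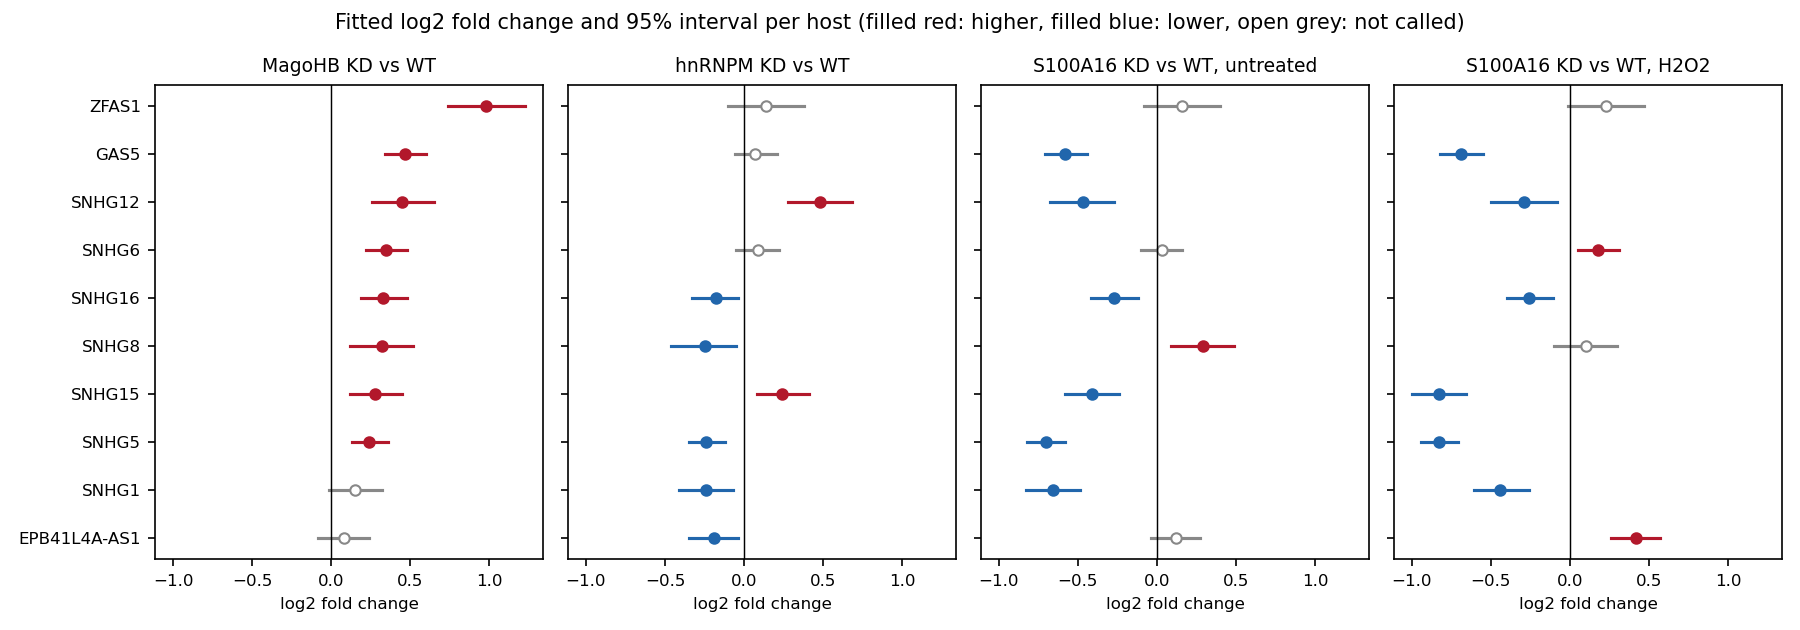
Points are fitted log2 fold changes of the 10 hosts against WT, bars are 95% intervals, and the 4 panels are the MagoHB, hnRNPM and S100A16 KDs untreated and the S100A16 KD under H2O2. Red points were called higher and blue ones lower, 8 and 0 in the MagoHB KD, 2 and 5 in the hnRNPM KD, 1 and 6 in the untreated S100A16 KD and 2 and 6 under H2O2.

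Several hosts share ground with other features, and the sources do not say whether counting used strand, so reads of a host and of an overlapping gene cannot be told apart. ZNFX1, an antiviral helicase gene whose exon overlaps that of ZFAS1 on the opposite strand, was at 271, 270 and 263 CPM in WT and at 362, 504 and 379 CPM in the MagoHB KD (log2 0.63, adjusted p = 1.43e-05). It was higher in the hnRNPM KD as well (328, 364 and 418 CPM, log2 0.47, adjusted p = 0.00031), where ZFAS1 was not called. ZNFX1-AS1_2 and ZNFX1-AS1_3 are short annotated stretches inside the exons of ZFAS1 on its own strand, so reads on them can be ZFAS1 reads. They rose 2.00-fold (log2 1.00, adjusted p = 1.48e-07) and 2.13-fold (log2 1.09, adjusted p = 1.48e-06) in the MagoHB KD. ZFAS1 itself rose 1.98-fold, and these are not separate measures of it. For GAS5 the opposite-strand neighbours were GAS5-AS1, at 0.205 and 0.245 CPM in WT and the MagoHB KD, and ZBTB37, which was lower in the KD (10.6 and 8.00 CPM, log2 -0.41, adjusted p = 0.00449, and -0.20 by total counts alone, not called). EPB41L4A, MCMDC2 (at SNHG6) and TRNAU1AP (at SNHG12) were not called in the MagoHB KD, with log2 fold changes of -0.06, 0.20 and 0.05, although MCMDC2 was called higher by total counts alone (0.41).

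Direct contrasts between KDs test whether these responses differ. Against the S100A16 KD, 8 of 10 hosts were higher in the MagoHB KD, where 21.7% of all genes tested were, and 0 lower, where 23.2% were. The median log2 difference of the hosts was 0.75 against 0.01 over all genes. The largest were GAS5 (log2 1.05, adjusted p = 8.35e-12), SNHG5 (0.94, adjusted p = 5.54e-12) and SNHG12 (0.93, adjusted p = 5.73e-08). SNHG8 and EPB41L4A-AS1 were not called, at log2 0.03 (95% interval -0.17 to 0.23) and -0.04 (-0.19 to 0.12). Against the hnRNPM KD, 8 of 10 were higher in the MagoHB KD, where 22.2% of all genes were, and 0 lower, where 22.3% were, with a median of 0.39 against 0.02. ZFAS1 led there (log2 0.85, adjusted p = 8.01e-06), and EPB41L4A-AS1 was among them (log2 0.27, adjusted p = 0.00527), although without hnRNPM KD 1 its call was lost (log2 0.17, adjusted p = 0.0557, between 9.45e-05 and 0.0887 over the alternatives). SNHG12 and SNHG15 did not differ beyond the spread, at log2 -0.03 (95% interval -0.22 to 0.17) and 0.04 (-0.13 to 0.21).

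The hnRNPM KD divided the hosts. SNHG12, at 17.6, 18.3 and 15.0 CPM, lay above all WT libraries and was higher by 1.39-fold (log2 0.48, adjusted p = 0.000263), and SNHG15, at 21.3, 19.8 and 18.4 CPM, also without overlap, by 1.18-fold (log2 0.24, adjusted p = 0.0158). These were 2 of 10 called higher, where 25.4% of all genes were. SNHG5, at 104, 99.2 and 95.7 CPM, lay below all WT libraries (log2 -0.24, adjusted p = 0.00122), as did SNHG1 (-0.24, adjusted p = 0.0205), SNHG8 (-0.25, adjusted p = 0.0359), SNHG16 (-0.18, adjusted p = 0.0357) and EPB41L4A-AS1 (-0.19, adjusted p = 0.0384). These were 5 of 10 called lower, where 23.8% of all genes were, and 5 of 10 with every library below WT, where 27.8% were, and the medians were -0.06 for the hosts and 0.02 for all genes. GAS5, ZFAS1 and SNHG6 were not called, at log2 0.07, 0.14 and 0.09.

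The lower calls of the hnRNPM KD are small and depend on the scaling. By total counts alone, which raises this comparison by a median of 0.11, the split of 2 higher and 5 lower became 4 and 0, with GAS5 (log2 0.19, adjusted p = 0.0291, and up to 0.726 over the alternatives) and SNHG6 (0.20, adjusted p = 0.0176, and up to 0.556) added to SNHG12 and SNHG15. Without hnRNPM KD 1, WT untreated 2 or WT untreated 3 only 2 hosts were called lower, and without hnRNPM KD 3 there were 3. SNHG15 was no longer called higher without hnRNPM KD 1, WT untreated 1 or WT untreated 3, whereas SNHG12 kept its call in every alternative (adjusted p 8.85e-08 to 0.00259). EPB41L4A, on the strand opposite EPB41L4A-AS1, was lower in the same KD (32.6 to 24.7 CPM, log2 -0.40, adjusted p = 0.000155).

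In the untreated S100A16 KD 6 of 10 hosts were lower than in WT, where 24.8% of all genes tested were, and 1 was higher, where 27.6% were. The median was -0.34 for the hosts and 0.06 for all genes. SNHG5 fell furthest, from 112, 119 and 121 CPM to 73.2, 72.0 and 71.7 CPM, or 61.6% of WT (log2 -0.70, adjusted p = 9.91e-10). GAS5 went from 60.2 to 61.6 CPM in WT down to 40.7, 43.6 and 38.5 CPM (67.1%, log2 -0.58, adjusted p = 1.36e-07), and SNHG1 to 20.5, 19 and 17 CPM (63.4%, log2 -0.66, adjusted p = 8.19e-07). In these 3 hosts no KD library reached the WT range. SNHG12 (log2 -0.47), SNHG15 (-0.41) and SNHG16 (-0.27) were lower with adjusted p of 0.00037, 0.000204 and 0.00296, and also without overlap, so that 6 of 10 hosts lay below WT in every library, as 29.9% of all genes did.

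SNHG8 was the exception, at 23.9, 26.7 and 24.2 CPM against 19.3 to 21.3 CPM in WT (log2 0.29, adjusted p = 0.0134). Its call was lost without WT untreated 1 (log2 0.24, adjusted p = 0.0769) or S100A16 KD 2 (log2 0.24, adjusted p = 0.0698), with a range of 0.000252 to 0.0769 over the alternatives. ZFAS1 lay above all WT libraries as well, at 89.2, 93.3 and 89.2 CPM, but was not called (log2 0.16, adjusted p = 0.265), and SNHG6 and EPB41L4A-AS1 overlapped WT, at log2 0.03 and 0.12. By total counts alone, which adds a median of 0.24 here, 4 hosts were higher (ZFAS1, SNHG6, SNHG8 and EPB41L4A-AS1) and 4 lower (SNHG1, SNHG5, GAS5 and SNHG12), and the calls on SNHG15 (log2 -0.18) and SNHG16 (-0.03) were lost.

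Under H2O2 the S100A16 KD again had 6 of 10 hosts lower than WT under the same treatment, where 24.7% of all genes were, and 2 higher, where 27.9% were. The 6 lower hosts were the 6 of the untreated comparison. H2O2 moved few genes in WT (0.147% higher, 0.076% lower) or in the KD (0% and 0.0134%). This recurrence is therefore not read as a separate result, and the share of all genes that recurred is not given. SNHG5 was at 119, 124 and 129 CPM in WT and at 70.9, 67.7 and 71.6 CPM in the KD (log2 -0.83, adjusted p = 8.09e-11), SNHG15 at 24.2, 23.1 and 22.2 CPM and at 12.9, 13.1 and 13.1 CPM (log2 -0.83, adjusted p = 2.19e-08), and GAS5 at 66.5, 63.8 and 65.2 CPM and at 39.6, 40.6 and 41.2 CPM (log2 -0.69, adjusted p = 1.03e-08). The others were SNHG1 (log2 -0.44), SNHG12 (-0.29) and SNHG16 (-0.26). None of the 6 overlapped, where 29.5% of all genes lay below WT in every library.

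EPB41L4A-AS1 was higher in the S100A16 KD under H2O2, at 51.5, 49.3 and 51.1 CPM against 36.8, 36.2 and 40.8 CPM in WT (log2 0.42, adjusted p = 8.04e-05). Its opposite-strand neighbour EPB41L4A was higher as well (log2 0.49, adjusted p = 1.39e-05). SNHG6, at 72.6, 67.4 and 71.9 CPM against 63.0, 56.9 and 67.3 CPM, was called by a narrow margin (log2 0.18, adjusted p = 0.0228), which was lost without the filter on low counts (adjusted p = 0.0667) and without WT H2O2 1 or 2 or S100A16 KD H2O2 1 or 3, with adjusted p between 0.000112 and 0.226 over the alternatives. By total counts alone 4 hosts were higher and 4 lower, the calls on SNHG12 (log2 -0.11) and SNHG16 (-0.07) being lost.

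H2O2 itself moved 1 host. SNHG15 rose in WT cells from 16.5, 17.4 and 16.5 CPM to 24.2, 23.1 and 22.2 CPM, all treated libraries above all untreated ones (1.38-fold, log2 0.47, SE 0.080, adjusted p = 0.00509). That is 1 of 10 hosts called higher where 0.147% of all genes were, 33 of 22382, and 0 lower, where 0.076% were, by edgeR and by DESeq2 alike. At an unadjusted p under 0.05, 2 hosts were higher and 0 lower. In 5 hosts all treated libraries lay above all untreated ones, as in 9.13% of all genes tested, and in 2 they lay below, as in 9.21%. Without WT H2O2 1 the call was lost (log2 0.44, adjusted p = 0.0593), the highest adjusted p over the alternatives, of which the lowest was 1.02e-06. SNHG8 went from 19.3 to 21.3 CPM to 23.2, 26.3 and 23.7 CPM, also without overlap, and was not called (log2 0.26, adjusted p = 0.553), except in the fit of only these 2 groups (0.27, adjusted p = 0.0111) and without MagoHB KD 2, hnRNPM KD 3 and S100A16 KD 1 together (0.26, adjusted p = 0.0313), with adjusted p up to 0.904 over the alternatives.

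In the S100A16 KD edgeR called 0 of 10 hosts under H2O2 in either direction, where 0% of all genes were called higher and 0.0134% lower. DESeq2 also called 0, and at an unadjusted p under 0.05 the counts were 2 higher and 0 lower. SNHG15 was at 12.7, 13.5 and 11.6 CPM untreated and at 12.9, 13.1 and 13.1 CPM treated, which overlap (log2 0.05, 95% interval -0.12 to 0.22). EPB41L4A-AS1 went from 39.9, 44.3 and 42.2 CPM to 51.5, 49.3 and 51.1 CPM without overlap and was not called (log2 0.26, 95% interval 0.11 to 0.42, adjusted p = 0.458). It was called in the fit of only these 2 groups (0.25, adjusted p = 0.00188) and without the same 3 libraries (0.23, adjusted p = 0.0324), with adjusted p up to 0.999 over the alternatives.

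The interaction asks whether H2O2 acted differently in the KD and in WT. For SNHG15 the log2 response was lower in the KD by 0.42 (interaction log2 -0.42, SE 0.12, 95% interval -0.65 to -0.18), and adjusted over all genes this did not pass (adjusted p = 0.527). It passed in the fit of only the 4 groups concerned (-0.43, adjusted p = 0.0135) and without MagoHB KD 2, hnRNPM KD 3 and S100A16 KD 1 (-0.40, adjusted p = 0.0426), with adjusted p up to 0.947 over the alternatives. By edgeR 0 of 10 hosts were called for the interaction in either direction, where 0.0179% of all genes were called higher and 0.076% lower. DESeq2 called 0 as well, and at an unadjusted p under 0.05 the counts were 1 higher and 1 lower.

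Other genes of the same biology were described from lists of known members. Of 16 other noncoding snoRNA hosts tested, 5 (31.2%) were higher in the MagoHB KD and 1 (6.25%) was lower, where 23.3% and 22.3% of all genes tested were. Their median log2 fold change was 0.12, and by total counts alone the split was 8 and 0. LRRC75A-AS1, an older symbol of SNHG29, rose from 62.2 ± 2.7 CPM to 106 ± 19 CPM (SD, n = 3; log2 0.77, adjusted p = 2.63e-05), and SNHG4 fell from 18.5 ± 1.1 to 14.6 ± 2.8 CPM (log2 -0.34, adjusted p = 0.0134, and -0.14 by total counts alone, not called). MEG8 rose at low levels, from 0.129 ± 0.026 to 0.686 ± 0.45 CPM (log2 2.42, adjusted p = 9.95e-05). Of 30 protein-coding snoRNA hosts outside the ribosomal proteins, 10 (33.3%) were higher and 12 (40.0%) lower (median -0.09), and by total counts alone 15 and 6.

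Ribosomal protein mRNAs moved with the hosts in the MagoHB KD. Of 24 that host snoRNAs 21 (87.5%) were higher and 0 lower (median 0.28). Of 53 others 36 (67.9%) were higher and 0 lower (median 0.24), where 23.3% and 22.3% of all genes tested were. DESeq2 gave 21 and 0, and 37 and 0, and total counts alone raised the higher counts to 24 and 52. RPL12 of the large subunit rose from 812 ± 9.3 to 1220 ± 25 CPM (log2 0.59, adjusted p = 8.22e-09), and RPS27 of the small subunit from 168 ± 5.6 to 295 ± 16 CPM (log2 0.82, adjusted p = 4.49e-10).

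In the untreated S100A16 KD the same lists were lower: 24 of 24 ribosomal protein hosts (median -0.64) and 51 of 53 other ribosomal protein mRNAs (median -0.54), with 22 and 44 by total counts alone. Protein-coding hosts outside them were lower in 24 of 30 (median -0.50, and 17 by total counts alone). Other noncoding hosts were higher in 5 and lower in 5 of 16 (median -0.01, and 6 and 3 by total counts alone). Of all genes tested 27.6% were higher and 24.8% lower in this KD. In the hnRNPM KD 8 of 24 ribosomal protein hosts (33.3%) were higher and 3 (12.5%) lower (median 0.09). Of the 53 others 15 (28.3%) were higher and 4 (7.55%) lower (median 0.05). The shares higher were near the 25.4% of all genes tested, of which 23.8% were lower. By total counts alone the splits of these lists were 16 and 1, and 32 and 0.

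**Figure D4:**
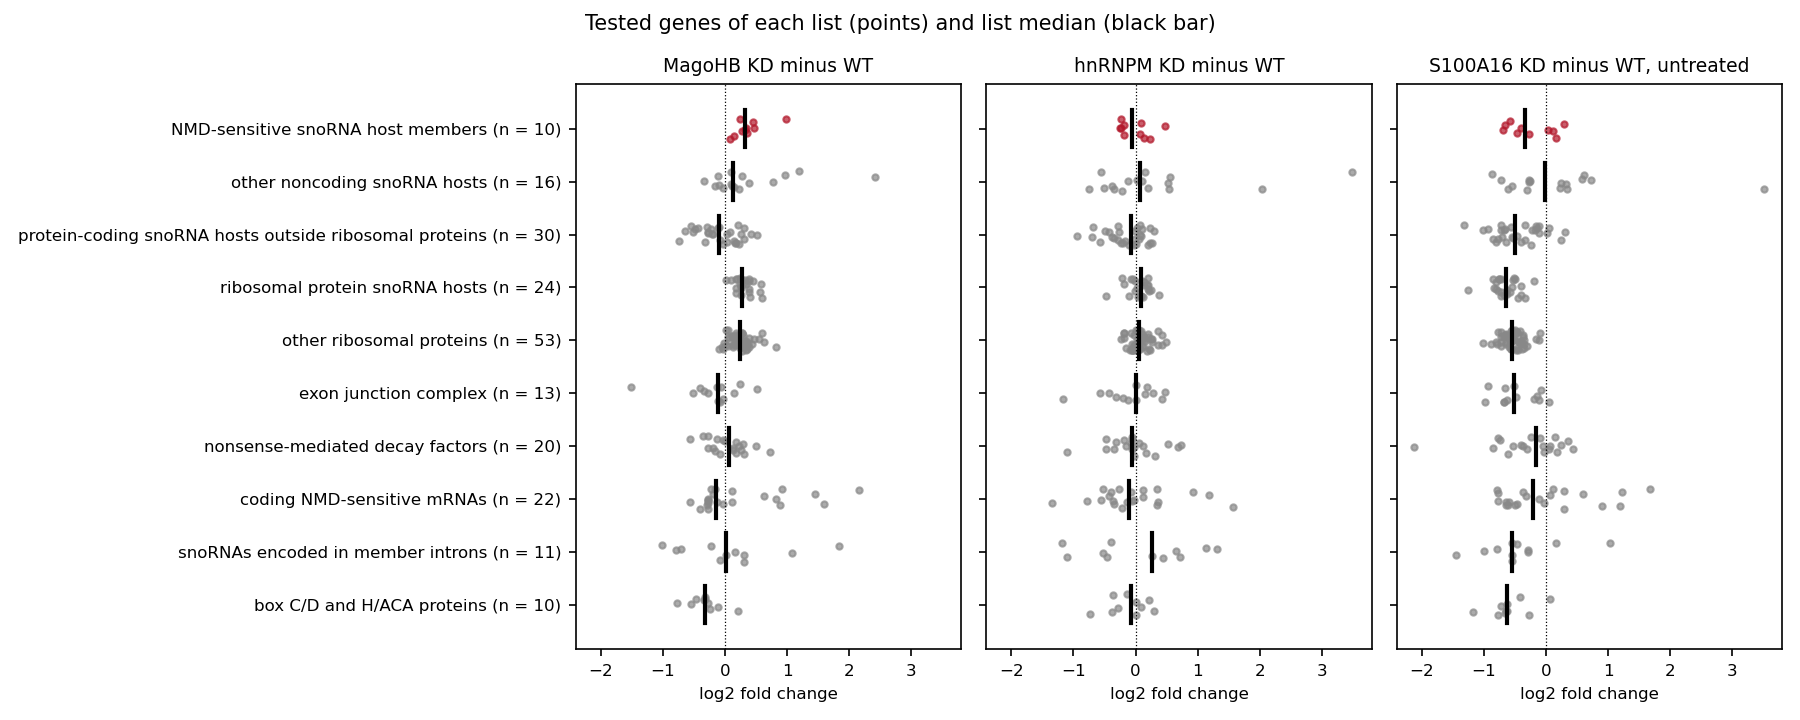
Each point is 1 tested gene of a list, placed by its log2 fold change against untreated WT in the MagoHB, hnRNPM and S100A16 KDs, with the list median as a black bar and the 10 hosts in red. Host medians are 0.33, -0.06 and -0.34, and medians of the 53 other ribosomal proteins are 0.24, 0.05 and -0.54.

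Of 20 NMD factors 7 (35%) were higher and 6 (30%) lower in the MagoHB KD (median 0.06), near the 23.3% and 22.3% of all genes tested, and by total counts alone 11 and 1. PNRC2, which links UPF1 to decapping, rose from 71.3 ± 1.4 to 118 ± 12 CPM (log2 0.73, adjusted p = 6.07e-09), and UPF3A from 270 ± 9.4 to 382 ± 9.8 CPM (log2 0.50, adjusted p = 8.59e-07). GSPT1, the translation termination factor eRF3a, fell from 416 ± 9.6 to 282 ± 34 CPM (log2 -0.56, adjusted p = 7.13e-07). Of 13 exon junction complex genes 2 were higher (PYM1, which removes the complex during translation, and CASC3, a peripheral subunit) and 4 lower, MAGOHB itself among them (median -0.12). These are 15.4% and 30.8% of the list, also near the shares of all genes tested, and by total counts alone the split was 5 and 3.

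Of 22 coding mRNAs known as NMD targets, 7 (31.8%) were higher and 8 (36.4%) lower in the MagoHB KD (median -0.14), where 23.3% and 22.3% of all genes tested were, and 10 and 2 by total counts alone (median 0.06). NAT9 rose from 36.2 ± 2.0 to 55.4 ± 3.4 CPM (log2 0.62, adjusted p = 2.0e-07) and GADD45B, a stress-induced mRNA, from 8.51 ± 0.56 to 23.2 ± 8.5 CPM (log2 1.45, adjusted p = 1.48e-05). UPP1 (log2 -0.56, adjusted p = 3.46e-05) and ATF4 (-0.28, adjusted p = 0.0003) were lower, ATF4 at -0.07 and not called by total counts alone. Counts are per gene, so a form of an mRNA that NMD targets cannot be told apart from its other forms. SMG1, SMG5, UPF1 and UPF2 are in this list and also among the NMD factors above, so the 2 lists are not separate. No test compared this list with the hosts.

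Across the 18 libraries the hosts did not form a single pattern. Pearson's r of a host with the mean standardized level of the other 9 was 0.84 for SNHG16, 0.80 for GAS5, 0.75 for SNHG1, 0.74 for SNHG5, 0.67 for ZFAS1, 0.56 for SNHG6, 0.55 for SNHG12, 0.54 for SNHG15, 0.03 for SNHG8 and -0.23 for EPB41L4A-AS1. The points are libraries that share the 6 groups, so these values describe differences between groups. Pairs ranged up to 0.95 (GAS5 with SNHG5) and down to -0.67 (SNHG15 with EPB41L4A-AS1).

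Among 10494 other genes whose mean reached 5 CPM, those whose level over the 18 libraries was most like the mean of the hosts were EEF1D, a subunit of the translation elongation factor complex (r = 0.959), IGFBP3, a secreted binding protein of insulin-like growth factors (0.95), and SMARCD1, a chromatin remodelling subunit (0.932). SLC25A6 and TOMM7, which serve mitochondrial transport of nucleotides and proteins, followed (0.926 and 0.922), then CASC10, E2F4, TMEM189, SDE2 and ZNF300 (0.919 to 0.907). These genes were chosen for following that mean over libraries of 6 groups, so differences shared with it are part of the choice. The adjusted p below do not allow for this. EEF1D was at 136% of untreated WT in the MagoHB KD, 83.2% in the untreated S100A16 KD and 104% in the hnRNPM KD, where it was not called. IGFBP3 was at 51.1 ± 3.0 CPM in WT and 518 ± 220 CPM in the MagoHB KD (log2 3.34, adjusted p = 8.2e-08). It was at 15.0 ± 1.4 CPM in the S100A16 KD without H2O2 (log2 -1.77, adjusted p = 2.33e-05). In the hnRNPM KD IGFBP3 was lower too, at 19.8 ± 1.7 CPM (log2 -1.37, adjusted p = 0.000209), where the median of the hosts was -0.06.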

How the data were processed

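Poly(A) RNA was sequenced from 18 A549 libraries in 6 groups of 3, grouped by the labels. Both the RPKM values and the whole-number counts per feature are as the authors deposited them. The submitters' processing notes name GRCh38 and StringTie 2.1.4, SAMtools 1.15.1, HISAT2 2.2.1, FastQC 0.11.9 and DESeq2 1.32.0. The counting program, annotation and strand setting were not given in the sources used here. Deposited RPKM equalled counts divided by exon length and total counts for 100% of 531539 values above 0 (relative tolerance 0.001). In each library 18.6% to 22.0% of the counts from 1 to 19 were odd. Both mates of a read pair may have been counted, and halved counts were an alternative.

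The robust quasi-likelihood F test of edgeR 4.0.16, run in R 4.3.3, was applied to the counts after filterByExpr and TMM scaling, with 1 mean per group over all 18 libraries. The fit was checked on simulated data with few changed genes, so that check does not cover scaling where many genes change. Benjamini-Hochberg adjustment ran over 22382 features and an adjusted p under 0.05 was called. Adjusted p in the text are of this test where no other is named. "Rose", "higher" and "lower" refer to this call. CPM are TMM-scaled, ± is the SD, and intervals are 95%. Alternatives were DESeq2 1.42.0, total counts or RLE factors, no filter, halved counts, only the groups compared, a replicate block, and leaving out each library. Another left out MagoHB KD 2, hnRNPM KD 3 and S100A16 KD untreated 1 together, which stood apart in an earlier analysis. By the median log2 distances used here S100A16 KD untreated 1 did not stand apart (0.061). MagoHB KD 1 (0.15) and hnRNPM KD 1 (0.11) lay farther from their groups and were kept. Replicate numbers were not taken to pair libraries, since in no comparison did every pair's deviations correlate above 0.1.

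The hosts, lists and naming rule were chosen with earlier results of these data known. The rule named all hosts, features overlapping them (1 is not reported here), the 2 members per list and direction with the smallest adjusted p in the MagoHB KD (of which the text gives a selection), and the 10 genes most like the hosts. Older symbols (SNHG29, SNHG32, ATP5F1B) were matched through RefSeq. Transcripts came from GENCODE 29 and start sites from RefSeq. Features pooling several loci under 1 name were left out. Per-sample columns not used numbered 0.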

Additional observations from a re-analysis of the deposited data

How the results depend on the processing

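Of the log2 fold changes of single hosts over all comparisons and alternatives, 1256 kept their side of the threshold, 39 lost a call, 25 gained one and 0 were called in the opposite direction. In the comparisons of the MagoHB KD, counts of called hosts stayed within 1.5 times under every alternative run (7 to 10 higher and 0 lower against WT). Total counts alone gave 4 higher and 0 lower in the hnRNPM KD, 4 higher in the untreated S100A16 KD and 4 higher in the S100A16 KD under H2O2. Fitting only the groups compared gave 2 higher in the untreated S100A16 KD, 2 higher for H2O2 in WT, 3 higher for H2O2 in the S100A16 KD, and 1 higher and 1 lower for the interaction. Leaving out MagoHB KD 2, hnRNPM KD 3 and S100A16 KD untreated 1 together gave 2, 2 and 1 higher in those comparisons and 1 lower for the interaction. Why these calls changed was not tested. Leaving out 1 library at a time gave 1 to 2 higher and 2 to 4 lower in the hnRNPM KD, 0 to 1 higher in the untreated S100A16 KD, 1 to 2 higher in the S100A16 KD under H2O2 and 0 to 1 higher for H2O2 in WT. With the replicate block, 8 hosts were higher in the MagoHB KD, and 2 were higher and 5 lower in the hnRNPM KD, and no count moved by over 1.5 times. With 3 libraries a group, standard errors of the hosts' log2 fold changes in the MagoHB KD were 0.056 to 0.11, and several calls on changes under 0.3 turned on 1 library.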

Other observations

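The snoRNAs inside the hosts were counted too, although selection on poly(A) tails captures mature snoRNAs poorly, and most of these features overlap exons annotated for their host, so a read on one can be host RNA. The 15 snoRNA features of host introns with a single locus summed to 12.8, 12.6 and 13.6 counts per 1e6 total counts in untreated WT. They summed to 16.7, 12.6 and 15.6 in the MagoHB KD, where MagoHB KD 2 was the lowest library and within the WT range, and to 12.2, 8.71 and 8.16 in the untreated S100A16 KD, whose libraries all lay below those of WT. Of the 11 tested, 1 was higher and 0 lower in the MagoHB KD, where 23.3% and 22.3% of all genes tested were. Their median log2 fold change was 0.01, where the hosts had 0.33. The higher one was SNORD50B of SNHG5, at 0.0912 CPM in WT and 0.335 CPM in the MagoHB KD (log2 1.84, adjusted p = 0.0124), and DESeq2 called 1 higher and 1 lower. In the untreated S100A16 KD 4 of 11 (36.4%) were lower and 0 higher, where 24.8% and 27.6% of all genes tested were. By total counts alone 3 were lower and 0 higher, with a median of -0.31 in place of -0.54. Among the 4 lower by the main test were SNORD22 (log2 -0.79, adjusted p = 0.00193), SNORD25 (-1.45, adjusted p = 0.00116) and SNORD26 (-1.0, adjusted p = 0.00313) of SNHG1. SNORA61 (-0.54, adjusted p = 0.00571) of SNHG12 was another, and both of these hosts were lower as well.

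The proteins that assemble box C/D and box H/ACA snoRNAs into particles went the other way from the hosts in the MagoHB KD. Of 10 tested, 8 were lower and 0 higher by edgeR (median log2 fold change -0.32), where 22.3% and 23.3% of all genes tested were. DESeq2 gave the same split, and by total counts alone 3 were lower and 1 higher (median -0.11). NOP56 and DKC1 of this list are also counted among the protein-coding snoRNA hosts. GAR1 of the H/ACA particle fell by log2 0.77 (adjusted p = 1.15e-05), at 15.4 ± 2.7 CPM in the KD against 26.3 ± 0.10 CPM in WT (SD, n = 3), and SNU13 of the C/D particle was at 72.1% of WT (log2 -0.47, adjusted p = 9.15e-05). In the untreated S100A16 KD 9 of 10 were lower, as were 6 of 10 hosts, where 24.8% of all genes tested were. By total counts alone 7 of these proteins were lower and 1 higher, and 4 hosts were lower and 4 higher.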
